A study of Mus musculus with 15 samples.

Results

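The genes described here carry peptides from the cytosol to the cell surface on major histocompatibility complex (MHC) class I. They were chosen as the rows of the in vivo count table whose symbol was H2-K1, H2-D1, B2m, Tap1, Tap2, Tapbp, Psmb8, Psmb9, Psmb10 or Nlrc5, and all 10 were found among its 24594 rows. The series profiled RNA from epithelium of the proximal small intestine of mice in 15 libraries, 3 for each of 5 groups. The pair of groups used here was sorted directly from tissue of strain C57Bl/6J. Fetal epithelium was taken at E16.5 as EpCAM+, DAPI-, CD31- and CD45- cells, with no treatment and no genotype given. Adult crypt epithelium came from crypts of the first 20% of the small intestine of untreated wild-type mice, sorted for EpCAM, for absence of DAPI and lineage marks, and for mid-range CD24. Age, sort gate and crypt isolation therefore changed together and cannot be told apart, and the library kit is given for the adult group only. The 9 organoid libraries, fetal and adult with or without an induced YAP transgene, stand in a table with no gene identifiers, and the 10 genes were not analysed there.

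MHC class I molecules show fragments of a cell's own proteins to CD8 T cells. The proteasome cuts the proteins, the TAP transporter moves the peptides into the endoplasmic reticulum, and tapasin holds an empty class I molecule at the transporter until a peptide fits. The surface complex is a heavy chain, such as the product of H2-K1 or H2-D1, bound to beta-2 microglobulin. Interferon gamma raises the whole pathway and adds the inducible catalytic subunits that turn the proteasome into the immunoproteasome. NLRC5 is the transactivator of class I genes and acts at their promoters together with RFX, CREB/ATF and NF-Y factors. Gut epithelial cells of adult animals display class I molecules to the lymphocytes that lie among them.

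The promoters of these genes are shown because class I genes are known to share a compact set of elements just before the start, which the values below can be read against. Sequences are those of RefSeq for GRCm38.p6, the patched form of mm10, and 8 of the 10 genes matched an entry, all but Tap2 and Nlrc5. Capitals mark matches on either strand to GGGNNNNNCCC (the NF-kappa-B type), GAANNGAAA and GAAANNGAAA (types bound by interferon regulatory factors), TGACG (the X2 type bound by CREB/ATF), CCAAT (the NF-Y type, ATTGG on the other strand) and TTCNNNGAA (the gamma-activated site type). Positions count backwards from the annotated start, with -1 as the last base before it, and the first start that the promoter table lists for a gene was used. For H2-K1 that start lies inside the wider span that RefSeq gives the gene, so the bases shown for it also lie within that span. H2-Q10, a class I gene outside the 10, is shown because it went the opposite way in the data.
H2-K1, chr17:34000348-34000487, minus strand, -140 to -1: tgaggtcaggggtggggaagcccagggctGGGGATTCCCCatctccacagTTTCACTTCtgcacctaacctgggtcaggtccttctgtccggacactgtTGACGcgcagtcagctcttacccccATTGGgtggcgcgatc
H2-D1, chr17:35262894-35263093, plus strand, -200 to -1: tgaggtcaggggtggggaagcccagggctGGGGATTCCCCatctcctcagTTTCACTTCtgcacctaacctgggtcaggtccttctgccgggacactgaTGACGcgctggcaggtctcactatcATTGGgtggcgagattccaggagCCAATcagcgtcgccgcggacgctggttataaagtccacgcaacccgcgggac
B2m, chr2:122147537-122147686, plus strand, -150 to -1: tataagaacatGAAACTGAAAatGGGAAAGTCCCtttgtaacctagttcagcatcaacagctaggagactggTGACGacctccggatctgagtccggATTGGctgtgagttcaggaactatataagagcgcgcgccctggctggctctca
Tap1 and Psmb9, the stretch between their starts, chr17:34187331-34187555, plus strand, -225 to -1 of Tap1: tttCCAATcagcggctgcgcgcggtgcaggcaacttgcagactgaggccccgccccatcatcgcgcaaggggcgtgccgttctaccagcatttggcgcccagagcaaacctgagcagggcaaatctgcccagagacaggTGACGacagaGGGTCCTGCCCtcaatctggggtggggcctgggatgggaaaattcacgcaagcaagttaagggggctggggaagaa
H2-Q10, chr17:35469889-35470088, plus strand, -200 to -1: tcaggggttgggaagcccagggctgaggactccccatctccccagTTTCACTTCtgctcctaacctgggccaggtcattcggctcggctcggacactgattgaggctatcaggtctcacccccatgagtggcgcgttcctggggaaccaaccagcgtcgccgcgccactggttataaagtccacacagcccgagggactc

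H2-K1, H2-D1 and B2m each held, in the same order towards the start, a match for interferon regulatory factors, a TGACG and an ATTGG, and each also held GGGNNNNNCCC. Tap1 and Psmb9 are read in opposite directions from the same 225 bases, so that their matches are the same bases seen from either side. Over the 250 bases before the start, TGACG stood in 5 of the 8 matched genes against 17.9% of 27025 RefSeq promoters, GGGNNNNNCCC in 5 of 8 against 12.1%, and CCAAT in 6 of 8 against 34.5%. For TGACG and for GGGNNNNNCCC the 5 genes were H2-K1, H2-D1, B2m, Tap1 and Psmb9. They are not 5 independent promoters, since Tap1 and Psmb9 share these matches and H2-K1 and H2-D1 hold the same matched letters. GAANNGAAA stood in 2 of 8 against 6.34%, GAAANNGAAA in 1 of 8 against 3.04%, and TTCNNNGAA in 1 of 8, Psmb8, against 7.18%. No motif of this set was found in the 250 bases of Psmb10. In H2-Q10 a GAANNGAAA match was present, and GGGNNNNNCCC, TGACG and CCAAT were not found in this window. Of other genes scanned outside the 10, Fcgrt held TGACG, with a log2 fold change (fetal over adult crypt) of 2.21. TGACG also stood in Psmb5 at 0.06 and, with GAANNGAAA, in Psmb6 at -0.23. H2-T23, at -2.47, held GAAANNGAAA and CCAAT but neither TGACG nor GGGNNNNNCCC. Whether matches go with the direction of change was not tested. A match describes letters and is not evidence of binding.

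All 10 genes were lower in fetal than in adult crypt epithelium, from 2.39-fold for H2-K1 to 54.6-fold for Psmb8, with Nlrc5 at 3 fetal counts in all. The test was edgeR's quasi-likelihood test over 13314 genes, and a gene counted as called where its adjusted p (Benjamini-Hochberg) was under 0.05. By the same rule 25.9% of all tested genes were lower in fetal cells, 29% were higher and 54.9% were called in either direction. Summed over the 10 genes, fetal libraries held 476, 500 and 517 CPM and adult libraries 1757, 1731 and 1977 CPM. The median log2 fold change was -2.71 over the 10 genes and 0.01 over all tested genes. Of the 10 genes, 7 were more than 4-fold lower, against 3.27% of all tested genes. The 3 fetal libraries lay below the 3 adult libraries for each of the 10 genes, as for 29.6% of all tested genes. The labels do not say that the 3 libraries of a group came from separate animals, so the p-values measure the spread between libraries, which may be technical.

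**Figure D1:**
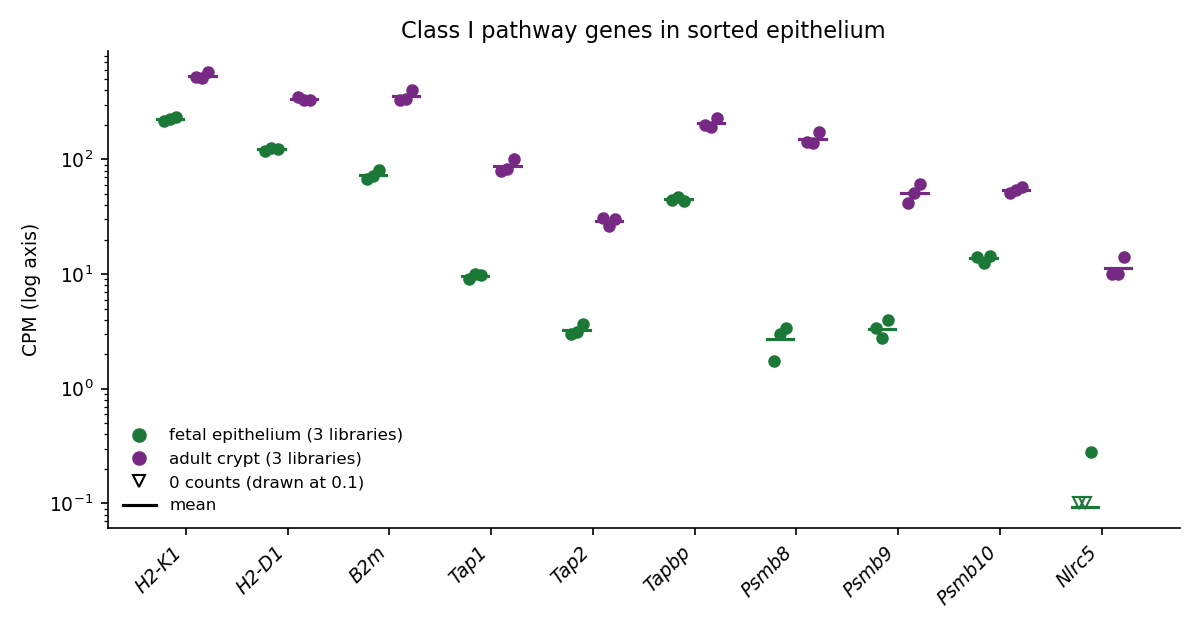
Counts per 1000000 counts of the library (CPM, log axis) of the 10 genes in each library of fetal epithelium (green, left) and adult crypt epithelium (purple, right), with a bar at the mean of 3 libraries and a triangle for a library with 0 counts. Fetal values lie below adult values for each gene, with the widest gaps for Psmb8 and Nlrc5 and the narrowest for H2-K1 and H2-D1.

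Libraries held 7888998 to 10538004 counts in fetal and 5795518 to 6045113 counts in adult cells. Epcam, the epithelial adhesion protein used in both sorts, averaged 844 ± 12.9 CPM in fetal epithelium and 1034 ± 51.2 CPM in adult crypts (SD, n = 3 each; log2 fold change -0.29 ± 0.08, SE). Of the 10 epithelial markers 8 were lower in fetal cells, 0 higher and 2 not called, and they summed to 5542 to 5692 CPM in fetal libraries, against 8355 to 8840 CPM in adult libraries. The keratins Krt19 and Krt8 were at -1.36 ± 0.09 and -1.11 ± 0.08, and the transcription factors Elf3 and Cdx1 at -1.17 ± 0.09 and -0.76 ± 0.09. The log2 fold change of H2-K1, -1.26, lies within this range. Markers of immune cells, which express class I genes at high levels, were low in both groups. Their 26 genes summed to 23.9 to 25.7 CPM in fetal libraries, against 29.4 to 31.6 CPM in adult libraries, and 7 of them, among them Cd3d and Cd2, had 0 counts in all 6. Of these 26 genes 4 could be tested, of which 2 were lower and 2 higher in fetal cells. Itgam, an integrin chain of myeloid cells, averaged 3.36 ± 0.940 CPM in fetal epithelium and 12.1 ± 1.12 CPM in adult crypts (-1.84 ± 0.24), and Itgae, the integrin chain of intraepithelial lymphocytes, 0.915 ± 0.361 CPM in fetal cells, against 2.94 ± 0.479 CPM in adult cells (-1.64 ± 0.39). Laptm5, a lysosomal protein of leukocytes, was at 3.95 ± 0.55 and Csf1r, a macrophage receptor, at 0.71 ± 0.18. Ptprc, which encodes CD45, had 1, 1 and 4 counts in fetal libraries and 4, 0 and 5 counts in adult libraries. Endothelial markers (8 genes) summed to 8.53 to 15.7 CPM in fetal libraries, against 9.68 to 11.9 CPM in adult libraries. Of 2 that could be tested, Esam was lower in fetal cells at -2.99 ± 0.38 and Egfl7 higher at 0.66 ± 0.24, while Cdh5 and Kdr had 35 and 14 counts in fetal libraries and 0 in adult libraries. Mesenchyme markers (12 genes) summed to 157 to 220 CPM in fetal libraries, against 11.8 to 19.8 CPM in adult libraries, and pancreatic exocrine markers (11 genes) to 851 to 1860 CPM in fetal libraries and 3.36 to 4.92 CPM in adult libraries. The part of these cells in the results was not tested. In bulk RNA, fewer cells that express a gene and less of its RNA per cell cannot be told apart. The Y-linked gene Ddx3y had 800 counts in fetal and 0 counts in adult libraries, so sex composition also differed between the groups and cannot be told apart from age.

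The heavy chains changed least. H2-K1 (chromosome 17, 33996012 to 34000619) stood at 216, 223 and 236 CPM in fetal libraries and 526, 516 and 573 CPM in adult libraries. The groups were clear of each other, and the log2 fold change of fetal over adult was -1.26 ± 0.08 (SE; edgeR adjusted p = 4.7e-08). H2-D1 (chromosome 17, 35263094 to 35267497), the other classical heavy chain of this strain, stood at 118, 127 and 123 CPM in fetal libraries and 347, 327 and 333 CPM in adult libraries. Its libraries were tight in both groups, and its log2 fold change was -1.45 ± 0.08 (edgeR adjusted p = 7.8e-09). Heavy chain genes resemble each other closely and reads can be split or shared among them, so values of single H2 genes are uncertain. B2m, the light chain that pairs with class I heavy chains (chromosome 2, 122147687 to 122153082), stood at 67.1, 71.6 and 80.4 CPM in fetal libraries and 331, 334 and 402 CPM in adult libraries. Its log2 fold change was -2.28 ± 0.11 (edgeR adjusted p = 1.7e-09), 4.86-fold lower, and its annotated span overlaps that of Patl2.

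Per kilobase of exon, the light chain and H2-K1 exchanged places. In fetal cells H2-K1 led with 136 ± 6.12 CPM per kilobase (SD, n = 3), ahead of B2m at 84.9 ± 7.88 and H2-D1 at 58.3 ± 2.19. In adult cells B2m led with 414 ± 46.8 CPM per kilobase, ahead of H2-K1 at 325 ± 18.5 and H2-D1 at 160 ± 4.98. No library of a gene overlapped those of its neighbour in either order. Lengths were those of coding transcripts in GENCODE M21, and the authors' own gene models were not given in the sources used here.

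Genes of peptide transport and loading were lower by more than the heavy chains. TAP1 and TAP2 form the peptide transporter of the endoplasmic reticulum. Tap1 (chromosome 17, 34187556 to 34197225) stood at 9.11, 10.1 and 9.75 CPM in fetal libraries and 79.2, 81.8 and 100.4 CPM in adult libraries. Tap2 (chromosome 17, 34204479 to 34216321) stood at 2.99, 3.12 and 3.66 CPM in fetal libraries and 30.6, 26.3 and 30.1 CPM in adult libraries. The log2 fold changes of these partners were nearly equal, -3.17 ± 0.13 for Tap1 and -3.14 ± 0.18 for Tap2 (edgeR adjusted p = 5.1e-10 and 1.0e-08). Tapbp, which encodes tapasin (chromosome 17, 33919478 to 33929290), stood at 44.0, 46.9 and 43.2 CPM in fetal libraries and 198, 192 and 231 CPM in adult libraries. Its log2 fold change was -2.21 ± 0.10 (edgeR adjusted p = 1.0e-09), close to that of B2m. Whether the changes of these genes differ from those of the heavy chains was not tested.

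Psmb8 had the widest difference of the 10 genes after Nlrc5. PSMB8, PSMB9 and PSMB10 are the inducible catalytic subunits that take the places of PSMB5, PSMB6 and PSMB7 in the core particle. Psmb8 (chromosome 17, 34198195 to 34201454) stood at 1.75, 2.99 and 3.37 CPM in fetal libraries, from 14, 24 and 36 counts, and at 142, 139 and 174 CPM in adult libraries. Its log2 fold change of -5.77 ± 0.17 was number 42 from the lowest among the 13314 tested genes (edgeR adjusted p = 4.1e-11). Psmb9 (chromosome 17, 34182030 to 34187330) stood at 3.37, 2.74 and 3.94 CPM in fetal libraries and 41.9, 50.7 and 61.0 CPM in adult libraries, or -3.91 ± 0.19 as log2 fold change (edgeR adjusted p = 2.9e-09). Psmb10 (chromosome 8, 105935728 to 105938392) changed least of the inducible subunits. It stood at 14.1, 12.6 and 14.3 CPM in fetal libraries and 51.4, 54.1 and 57.6 CPM in adult libraries, or -1.99 ± 0.12 as log2 fold change (edgeR adjusted p = 1.5e-08).

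The constitutive subunits that these replace had log2 fold changes between -0.23 and 0.06. Psmb5 averaged 24.4 ± 2.66 CPM in fetal cells, against 23.4 ± 4.40 CPM in adult cells, or 0.06 ± 0.16 as log2 fold change (SE; edgeR adjusted p = 0.79). Psmb7 averaged 32.1 ± 2.83 CPM in fetal epithelium and 36.2 ± 1.71 CPM in adult crypts, or -0.18 ± 0.11 as log2 fold change (edgeR adjusted p = 0.20), and neither gene was called. Psmb6 was lower by a small step, with 104 ± 5.40 CPM in fetal cells, against 122 ± 8.37 CPM in adult cells, or -0.23 ± 0.09 as log2 fold change (edgeR adjusted p = 0.040). Per kilobase of exon, fetal libraries held 0.0396, 0.0611 and 0.0857 Psmb8 for each Psmb5, and adult libraries 4.17, 3.22 and 3.50. By this measure the inducible form was the rarer RNA in each fetal library and the more abundant in each adult library. Levels of different genes compare well only where reads are counted equally well for both, which was not checked. For Psmb10 to Psmb7 the same ratio was 0.353, 0.362 and 0.422 in fetal and 1.22, 1.40 and 1.37 in adult libraries. For Psmb9 to Psmb6 it was 0.0190, 0.0149 and 0.0237 in fetal and 0.221, 0.234 and 0.288 in adult libraries, below 1 in both groups. On the log2 scale the fetal-minus-adult difference of the ratio was -5.89 ± 0.33 (SE) for Psmb8 to Psmb5, -3.68 ± 0.22 for Psmb9 to Psmb6 and -1.81 ± 0.10 for Psmb10 to Psmb7. The exact permutation test gave p = 0.1 (two-sided) for each of these 3 ratios, the smallest value that 3 libraries against 3 allow, and the groups did not overlap in any of them.

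**Figure D2:**
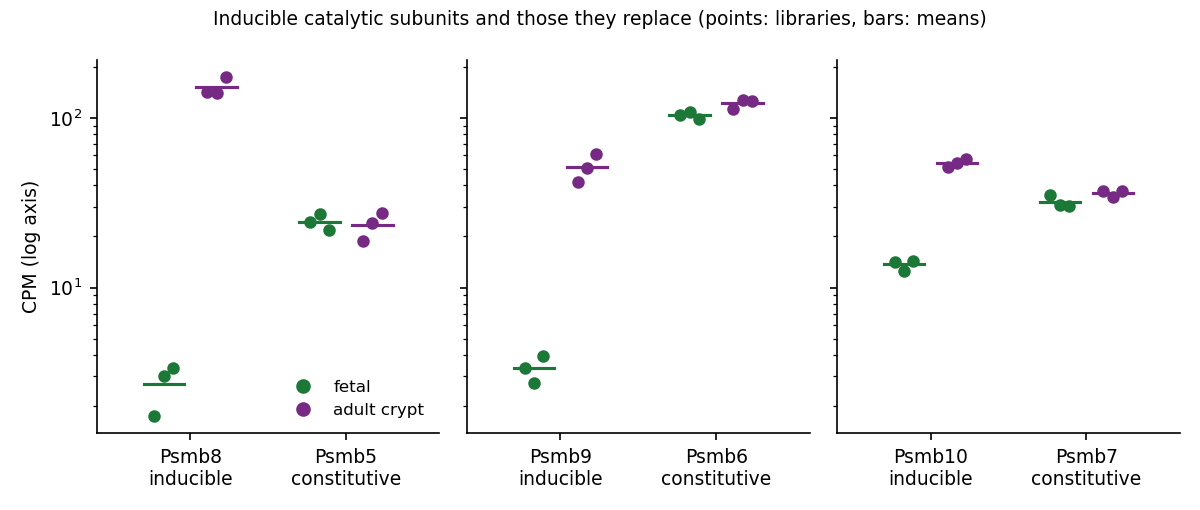
CPM (log axis) of each inducible catalytic subunit (left in each panel) and of the constitutive subunit it replaces (right), in libraries of fetal (green) and adult crypt epithelium (purple), with bars at the means. The inducible subunits lie lower in fetal libraries, by 54.6-fold for Psmb8, 15.0-fold for Psmb9 and 3.96-fold for Psmb10, whereas Psmb5 and Psmb7 overlap between the groups and Psmb6 differs by 1.17-fold.

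Nlrc5, the class I transactivator (chromosome 8, 94434335 to 94527272), was nearly absent from fetal libraries. It had 0, 0 and 3 counts in fetal libraries and 57, 59 and 81 counts in adult libraries, or 11.4 ± 2.29 CPM in adult cells. The ratio of fetal over adult was 0.00989, with an exact 95% interval of 0.00202 to 0.0293 that covers counting error only. Its fitted log2 fold change was -6.47 ± 0.52 (edgeR adjusted p = 2.9e-07) and -9.24 without fetal replicate 3, the only fetal library with counts. Other annotated genes, 9330175E14Rik among them, overlap its span.

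Within the groups, the library with the highest CPM was counted over the 10 genes. The share of all tested genes that were highest in each library was not computed, so the counts may not be particular to the 10. Fetal replicate 3, the deepest library, had the highest CPM of the fetal libraries for 7 of the 10. Adult replicate 3 had the highest CPM for 8 of the 10. Over all 10 genes it stood at 0.988 to 1.39 times the mean of adult replicates 1 and 2, with a median of 1.20. In the same library the class II transactivator Ciita stood at 2.03 times and the class II invariant chain Cd74 at 1.63 times that mean. Ido1, a tryptophan-degrading enzyme that interferon gamma induces, stood at 0.422 times. Immune markers in adult replicate 3 summed to 31.1 CPM, within the range of the other adult libraries. Itgam at 12.1 CPM and Csf1r at 7.78 CPM held most of that sum, so it does not follow lymphocytes alone. Of lymphocyte markers, Gzma had 2, 4 and 10 counts in adult replicates 1, 2 and 3, Gzmb 2, 8 and 5, and Itgae 19, 18 and 14. The part of immune cells in these differences between libraries was not tested.

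The order of levels per kilobase changed most for Psmb8. In fetal cells it was in position 8 of 10, at 1.66 ± 0.523 CPM per kilobase (SD, n = 3), and its libraries overlapped those of Psmb9 at 2.48 ± 0.441. In adult cells it was in position 4 of 10, at 93.2 ± 12.0 CPM per kilobase, after B2m, H2-K1 and H2-D1. Further down the adult order, Psmb10 (41.5 ± 2.34), Psmb9 (37.9 ± 7.08) and Tap1 (29.5 ± 3.93 CPM per kilobase) followed each other, and each overlapped the next. Tap2 and Nlrc5 closed both orders.

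Of the 10 genes, 7 lie on chromosome 17, in the MHC. Psmb9, Tap1, Psmb8 and Tap2 stand side by side within 34.3 kb in the class II region, with 969 bases between Tap1 and Psmb8 and 3024 bases between Psmb8 and Tap2. Among the tested genes with a midpoint within 500 kb of the Tap1 start were 6 of the 10 genes and 5 class II genes, all of them lower in fetal cells. The other 38 tested genes of this window had a median log2 fold change of -0.16, with Btnl2 the lowest at -1.36. Of these 38, 15 (39.5%) were lower and 4 higher, against 25.9% lower and 29% higher among all tested genes. Tapbp, at -2.21, lies between Zbtb22 at -0.70 ± 0.10 and Rgl2 at -0.01, the tested neighbours on either side. Brd2, a chromatin reader whose gene lies between H2-K1 and Psmb9, was at -0.34. B2m lies on chromosome 2, and Psmb10 and Nlrc5 lie on chromosome 8.

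**Figure D3:**
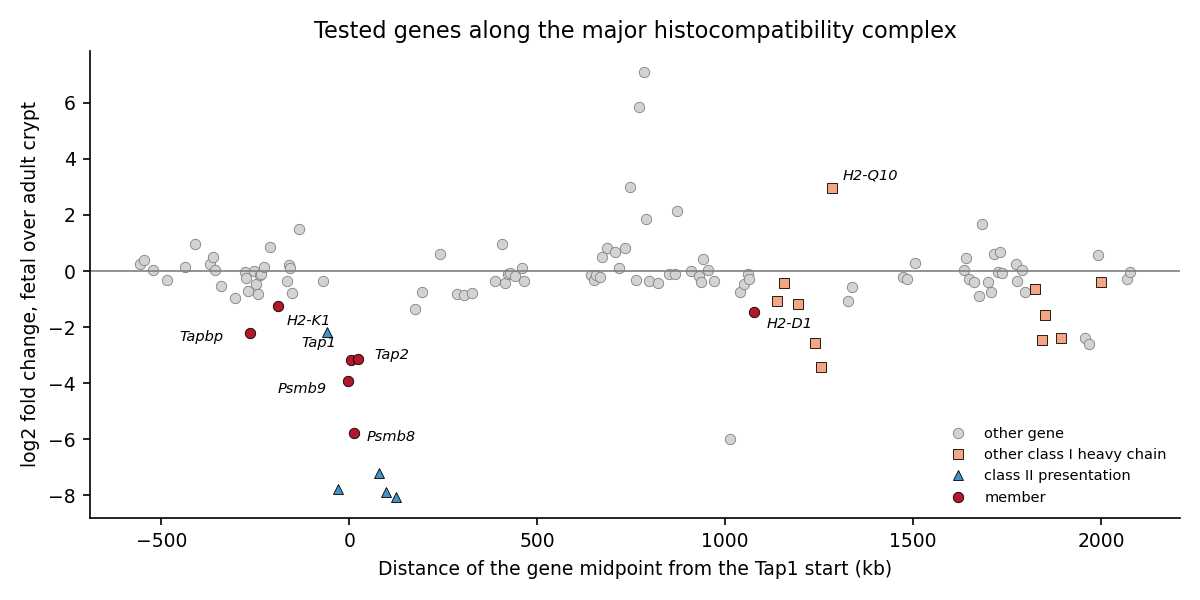
Log2 fold change of fetal over adult crypt epithelium for tested genes on chromosome 17, by the distance of the gene's midpoint from the Tap1 start in kb. The window runs from 600 kb before to 2500 kb after that start and holds MHC genes and flanking genes. The 7 members there (red) and the class II genes (blue) lie below 0. The other genes (grey), the pseudogene H2-K2 among them, have a median of -0.12. Among other class I heavy chains (orange squares) H2-Q10 lies above 0 at 2.96.

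Class I heavy chains outside the 10 did not all change the same way. The table held 22 of them and 15 could be tested, of which 9 were lower, 3 higher and 3 not called, with a median log2 fold change of -0.65. H2-T23, which encodes Qa-1, a ligand of inhibitory receptors on natural killer and T cells, averaged 8.91 ± 1.35 CPM in fetal epithelium and 49.7 ± 3.90 CPM in adult crypts, or -2.47 ± 0.14 as log2 fold change (SE; edgeR adjusted p = 1.2e-08). H2-Q4 averaged 24.98 ± 0.441 CPM in fetal cells, against 56.6 ± 5.59 CPM in adult cells, or -1.18 ± 0.11 as log2 fold change. H2-T3, which encodes the thymus leukaemia antigen of gut epithelium, was at -0.41 ± 0.09. H2-Q10, known as a secreted class I molecule made in the liver, stood at 43.7, 43.9 and 55.4 CPM in fetal libraries and 6.89, 6.11 and 5.36 CPM in adult libraries. It was higher in each fetal library, and its log2 fold change was 2.96 ± 0.16 (edgeR adjusted p = 8.5e-09).

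Of the chains that pair with B2m for tasks other than peptide display, Fcgrt and Cd1d1 were higher in fetal cells. Fcgrt, the heavy chain of the neonatal Fc receptor that carries milk antibodies across the suckling gut, stood at 129, 203 and 199 CPM in fetal libraries and 40.1, 36.6 and 38.03 CPM in adult libraries. Its log2 fold change was 2.21 ± 0.16 (edgeR adjusted p = 8.5e-08), while that of B2m was -2.28. Cd1d1, which presents lipids, averaged 2.40 ± 0.725 CPM in fetal epithelium and 0.578 ± 0.366 CPM in adult crypts, or 2.00 ± 0.51 as log2 fold change (edgeR adjusted p = 0.0051). Hfe, the regulator of iron uptake, was not called at -0.38 ± 0.27 (edgeR adjusted p = 0.25).

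**Figure D4:**
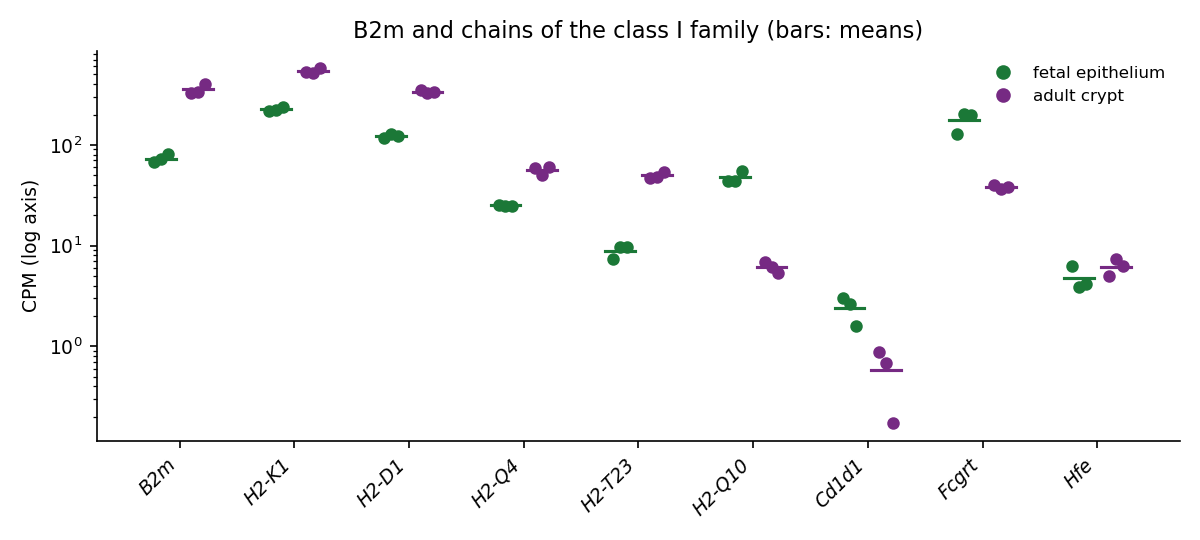
CPM (log axis) of B2m and of chains of the class I family in libraries of fetal (green) and adult crypt epithelium (purple), with bars at the means. B2m, H2-K1, H2-D1, H2-Q4 and H2-T23 are lower in fetal libraries, H2-Q10, Cd1d1 and Fcgrt are higher, and Hfe overlaps.

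Of 13 tested genes of peptide trimming, loading and glycoprotein folding, 5 were lower, 2 higher and 6 not called, with a median log2 fold change of -0.19. Tapbpl and Erap1 had the lowest log2 fold changes of the list. Tapbpl, a tapasin-related peptide editor, averaged 14.8 ± 1.15 CPM in fetal cells, against 41.8 ± 5.24 CPM in adult cells, or -1.50 ± 0.13 as log2 fold change (SE; edgeR adjusted p = 7.9e-07). Erap1, the aminopeptidase that trims peptides in the endoplasmic reticulum, averaged 117 ± 10.998 CPM in fetal epithelium and 242 ± 17.3 CPM in adult crypts, or -1.05 ± 0.09 as log2 fold change (edgeR adjusted p = 8.7e-07). Calr, the general lectin chaperone calreticulin, was not called at -0.06 ± 0.13, with 1554 ± 95.9 CPM in fetal cells, against 1623 ± 344 CPM in adult cells. Canx, which encodes calnexin, was at -0.25 ± 0.10, Uggt1 at -0.45 ± 0.09 and the oxidoreductase Pdia3 at 0.22 ± 0.09, the last at the edge of the threshold (edgeR adjusted p = 0.0498). Hspa5, the main chaperone of the compartment, was higher at 0.75 ± 0.14.

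The rest of the proteasome core had smaller differences as well. Of 16 other core and assembly genes, 5 were lower, 0 higher and 11 not called, with a median log2 fold change of -0.21. The 5 included Psmb4 at -0.60 ± 0.10, the assembly chaperone Psmg4 at -1.01 ± 0.20 and Pomp, the maturation factor of the core, at -0.31 ± 0.08. Of 5 activators and inhibitors, 3 were lower and 2 were not called. Psme1, a subunit of the interferon-inducible activator PA28, averaged 118 ± 18.9 CPM in fetal epithelium and 275 ± 16.8 CPM in adult crypts, or -1.21 ± 0.11 as log2 fold change (edgeR adjusted p = 1.0e-06). Its partner Psme2 was at -1.34 ± 0.47, from 3 to 20 counts per fetal and 12 to 23 counts per adult library, and is uncertain because a near-identical copy exists in the mouse. Psme3, which forms an activator of the nucleus, was at -0.36 ± 0.09.

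**Figure D5:**
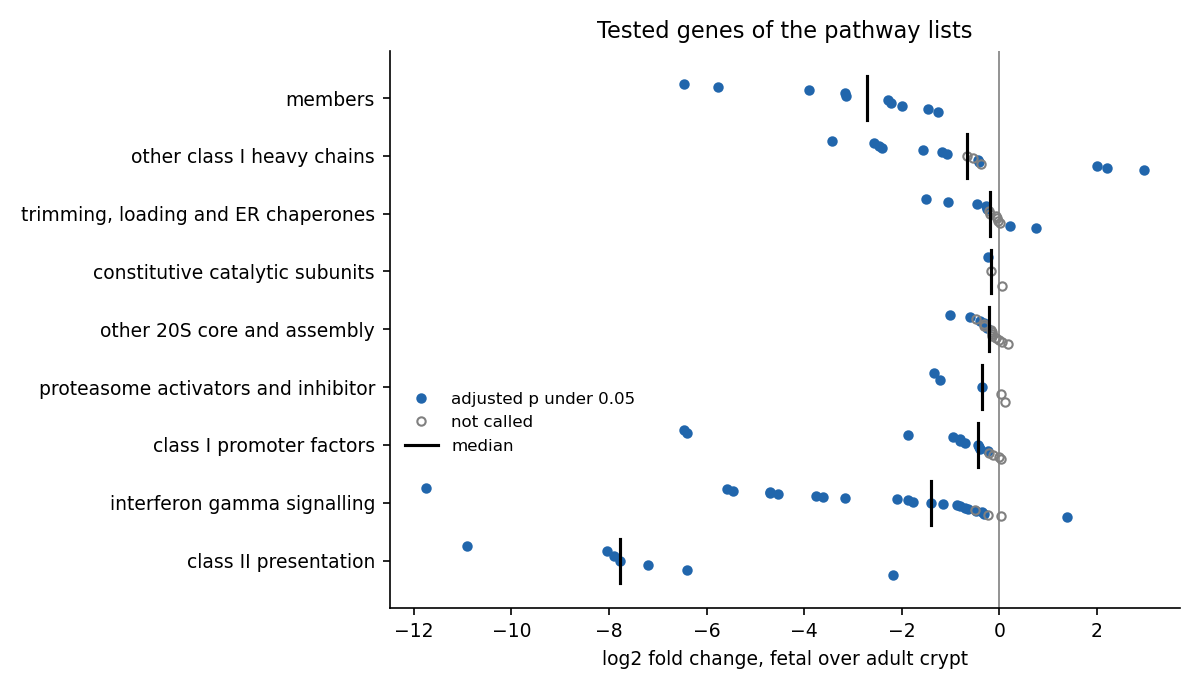
Log2 fold change of fetal over adult crypt epithelium for the tested genes of each pathway list, filled where the adjusted p was under 0.05, with a black line at the median of the list. The 10 members have a median of -2.71, the constitutive catalytic subunits of -0.18, the interferon gamma list of -1.41 and class II presentation of -7.78.

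Among factors known to act at class I promoters, Nlrc5, Ciita and Irf1 had the lowest log2 fold changes. Of 15 tested genes, Nlrc5 included, 11 were lower, 0 higher and 4 not called, with a median log2 fold change of -0.44. Irf1, the interferon-induced regulator that binds the GAANNGAAA type of site, stood at 47.2, 43.9 and 56.9 CPM in fetal libraries and 183, 171 and 192 CPM in adult libraries, or -1.88 ± 0.10 as log2 fold change (SE; edgeR adjusted p = 1.0e-08). Nfkb1 was at -0.95 ± 0.10. Rfx5, a core subunit of the RFX complex, was not called at 0.03 ± 0.17, with 28.2 ± 4.97 CPM in fetal cells, against 27.6 ± 5.39 CPM in adult cells, whereas its partners Rfxank and Rfxap were at -0.80 ± 0.12 and -0.44 ± 0.13. Creb1 and Atf1 were not called, at -0.12 ± 0.09 and 0.00 ± 0.11. Ciita, the class II counterpart of Nlrc5, had 2, 1 and 8 counts in fetal libraries and 164, 146 and 315 counts in adult libraries. Its log2 fold change of -6.40 ± 0.45 lay beside the -6.47 of Nlrc5.

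Genes of interferon gamma signalling and response were mostly lower as well. The table held all 31 genes of this list and 25 could be tested, of which 21 were lower, 1 higher and 3 not called. Of the receptor chains, Ifngr1, which binds the ligand, was lower at -0.86 ± 0.09 and Ifngr2 was not called at 0.04 ± 0.08. Irf8 was at -2.09 ± 0.12, and the interferon-induced GTPases Ifi47 and Irgm2 were at -4.70 ± 0.29 and -3.75 ± 0.25. Cxcl10, a chemokine that interferon gamma induces, was the member of the list that was higher, at 1.39 ± 0.41, with 17 to 22 counts per fetal and 3 to 6 counts per adult library. All 7 tested class II genes were lower, with Cd74 at -10.91 ± 0.32 and H2-DMa, the least changed, at -2.17 ± 0.20.

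The genes with the pattern most like that of the 10 were looked for among 9949 other tested genes with a mean log2 CPM of at least 3. Likeness was the root mean square distance between centred log2 CPM and the mean centred profile of the 10 genes over the 6 libraries. The 5 nearest were Dglucy (0.0885), Relb, a subunit of NF-kappa-B (0.0913), Lgals9, which encodes galectin-9 (0.0948), Bcl2l14 (0.105) and Apobec3, an antiviral deaminase (0.111). For the 10 genes themselves the distance ran between 0.0858 for Tap2 and 1.37 for Psmb8. Lgals9 averaged 94.2 ± 12.3 CPM in fetal cells, against 709 ± 47.7 CPM in adult cells (SD, n = 3 each), and Relb 4.15 ± 0.378 CPM in fetal epithelium and 35.5 ± 2.53 CPM in adult crypts. With libraries of only a pair of groups, this distance mostly reflects the size of the difference between the groups.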

How the data were processed

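The deposited in vivo table holds raw counts per Entrez gene, whole numbers whose totals differ between libraries. Per the submitters' processing notes, mm10 and edgeR were used. The aligner, counter, annotation, strand setting and filters were not given in the sources used here, and without a known strand setting reads of overlapping genes cannot be told apart. Per the labels' protocols, adult libraries were made with a strand-marking total RNA kit made for small inputs. Groups and replicate numbers came from sample titles. Counts were tested with edgeR 4.0.16 in R 4.3.3 (quasi-likelihood test, TMM, filterByExpr by group, no covariate), with Benjamini-Hochberg adjustment over all 13314 tested genes. CPM used TMM-scaled library sizes. Standard errors were approximated as the size of the log2 fold change over the square root of F. Log2 ratios of subunits added 0.5 to each count, and the ratios per kilobase of exon added nothing. Rn45s, a ribosomal RNA precursor, was kept and held 7.32% to 10.7% of counts, and 7 rows without a symbol were kept. No replicates were duplicates within sampling noise (chi-square per degree of freedom at least 4.83). The procedure was tested on simulated counts. The 10 members and all lists were chosen with earlier results of these data known. Named are the members, a fixed set of key genes (1 is not reported here) and up to 4 called genes of smallest p per list, while Cd1d1, Hfe, H2-T3, Cxcl10, H2-DMa, Creb1, Atf1, Rfxank, Rfxap, Ido1, Ddx3y, Cdh5, Kdr, the markers at 0 and the MHC neighbours were chosen after their values were seen. Alternatives were DESeq2 1.42.0, RLE size factors, scaling by library size alone, testing without a filter or with 1 CPM in 3 libraries as the filter, a replicate block, leaving out Rn45s and leaving out each library.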

Additional observations from a re-analysis of the deposited data

How the results depend on the processing

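All 10 genes were called lower in fetal cells under each of the 13 alternatives, with an edgeR or DESeq2 adjusted p of at most 2.5e-06. The log2 fold change of Nlrc5 ran from -9.24 without fetal replicate 3 to -5.997 without fetal replicate 1. Psmb8 ran from -5.98 to -5.55 and H2-K1 from -1.30 to -1.21. The count of called genes was 7304 and ran from 6397 without fetal replicate 2 to 8205 with no filter on low counts. With library size only, 57.3% of calls were higher in fetal cells, against 52.8% with TMM. The replicate numbers did not pair the libraries. Deviations of same-numbered fetal and adult libraries correlated at -0.06, -0.04 and -0.09, and 0 of 6 libraries correlated best with its own number. With the replicate block, 6886 genes and all 10 members were called. The ratio of Psmb8 to Psmb5 had log2 differences of -6.15 to -5.61 when each library was left out. Depth limits Nlrc5, Psme2 and fetal Psmb8, Psmb9 and Tap2, which rest on few counts. The same holds for fetal Ciita and for adult Cd1d1 and Cxcl10, among others.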

Other observations

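The butyrophilin-like genes that lie next to the class II genes on chromosome 17 encode surface proteins of gut epithelium, some of which are known to shape the gamma-delta T cells among mouse enterocytes. They were looked at after their values were seen. As means of 3 libraries, Btnl1 stood at 54.6 CPM in fetal cells, against 92.4 CPM in adult cells, or -0.75 ± 0.13 as log2 fold change (SE; edgeR adjusted p = 2.6e-04). Btnl6 averaged 54.4 CPM in fetal cells, against 93.5 CPM in adult cells (-0.78 ± 0.12), Btnl4 35.2 CPM in fetal cells, against 61.6 CPM in adult cells (-0.80 ± 0.12), and Btnl2 12.98 CPM in fetal cells, against 33.4 CPM in adult cells (-1.36 ± 0.15). These butyrophilin-like genes were thus counted at over 10 CPM in fetal cells, a level chosen after the values were seen. There the 10 members averaged from 0.0937 CPM for Nlrc5 to 225 CPM for H2-K1, with Psmb8 at 2.70 CPM. The pseudogene Btnl5-ps, which lies between Btnl4 and Btnl6, was at -0.87 ± 0.12, with 49.9 CPM in fetal cells, against 91.4 CPM in adult cells. These values lie close to those of Btnl1 and Btnl6. Whether reads are shared among the butyrophilin-like genes was not checked, so their single values are uncertain. The pseudogene H2-K2, which lies beside H2-K1 and can share reads with it, was higher in fetal cells at 0.85 ± 0.27, with 5.91 CPM in fetal cells, against 3.28 CPM in adult cells. Further along the MHC, Hspa1a and Hspa1b, which encode heat shock chaperones, had log2 fold changes of 7.10 and 5.84, and Tnf of -5.997, so large differences in both directions also occurred at genes of the region outside antigen presentation.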
